A study of Danio rerio with 16 samples.

Results

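Expression of radial glia and neural progenitor genes was followed in the whole brain of adult zebrafish (Danio rerio). The genes were gfap, fabp7a, glula, s100b, sox2, her6, her9, vim, notch3 and id1, which were named as 10 known markers and regulators of these cells and matched to the deposited table by symbol in any case. Of these 10 genes, 9 were found among the 15304 genes of the table, and fabp7a was not analysed here. No filter on low values was applied, and each of the 9 had at least 421 reads in every library.

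RNA came from fish aged 17 weeks, in 4 strains and both sexes. AB and SH (Scientific Hatcheries) are strains bought from suppliers, whereas HSB and LSB (high and low stationary behavior) are lines bred from wild-caught fish by selection on how long a fish stays still. The labels name no transgene or treatment in any group, but per the study's methods some of the sampled HSB and LSB fish had been used in a behavior test a few weeks earlier, and no such test is stated for AB and SH. Each library was made from pooled RNA of 10 fish of the same strain and sex, and there were 2 such pools for every strain and sex, which gave 8 female and 8 male libraries, 16 in all, from 160 fish.

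Radial glia are the progenitors that line the ventricles, and in fish they persist through adult life, where they also take the place of the star-shaped astrocytes of mammals. Most of them rest, and a minority enter the cell cycle and give rise to new neurons. Rest is held by Notch signalling, in which a ligand on a neighbouring cell releases the intracellular part of a Notch receptor, which in turn switches on her genes, repressors of the genes that start neuronal differentiation. BMP signalling acts on the same cells through the id genes, whose proteins bind and silence such differentiation factors. Teleost radial glia also make aromatase B (cyp19a1b), the brain enzyme that turns androgens into estrogens.

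The libraries held 18398865 to 35737825 reads on genes (median 28773428), so that a single read was worth 0.0280 to 0.0544 CPM (counts scaled to 1000000 per library, the deposited unit). Pools of the same strain and sex differed by more than sampling noise in all 8 groups (chi-square over its degrees of freedom from 4.99 to 14.4). Markers of neurons summed to 5989 to 6564 CPM in every library, while markers of skeletal muscle ranged from 25.1 to 2182 CPM and those of retina from 3.01 to 86.6 CPM. Of the pituitary markers only pomca was measured, at 1.89 to 3.01 CPM. The libraries labelled LSB female pool 2 and LSB male pool 2 went against their sex labels at dio2, cyp19a1b and the growth factor gene igf1. The deiodinase gene dio2 was at 128 CPM in the former and 40.1 CPM in the latter, whereas the other female libraries had 42.1 to 76.7 CPM and the other male libraries 110.0 to 198 CPM. The same held within LSB for cyp19a1b, with 2228 and 3028 CPM in these libraries against 3301 in LSB female pool 1 and 2270.0 in LSB male pool 1. The myelin regulator gene myrf followed the labels instead. It was at 262 and 293 CPM in these libraries, against 256 in LSB female pool 1 and 301 in LSB male pool 1. However, myrf passed the threshold for sex under these labels, which favors genes that follow them. It therefore cannot tell whether they were exchanged. The paper removed an LSB female replicate from its network analyses as an outlier and did not name which. Whether the labels were exchanged was not tested, so results on sex over all strains are given with and without both libraries numbered 2.

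The first question was which of these genes rise and which fall between the sexes. None of the 9 passed the threshold (limma on log2(CPM + 0.5), strain and sex as terms, Benjamini-Hochberg adjusted p under 0.05 over all genes), where 6 of 15304 genes, 0.0392%, did so. The estimates were split, with 5 genes lower and 4 higher in males. Their median log2 difference (male over female) was -0.0001, against -0.0019 over all genes, and the median size regardless of sign was 0.039 against 0.049. At an unadjusted p under 0.05, 1 of the 9 genes was found, as against 10.2% of all genes. Without both LSB libraries numbered 2, still 0 of 9 passed the adjusted threshold (0.523% of all genes did) and 3 had an unadjusted p under 0.05, namely her9, vim and sox2 (11.1% of all genes). Without any LSB library 2 had an unadjusted p under 0.05, her9 and vim (12.1% of all genes).

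The gene nearest to the threshold was her9, a hairy-related repressor that keeps neural progenitors undifferentiated in the zebrafish embryo. In AB it was at 21.6 and 20.7 CPM in the female pools and at 19.8 and 20.3 CPM in the male pools. In SH the values were 23.6 and 23.1 CPM in females and 21.6 and 21.4 CPM in males. In LSB they were 22.8 and 22.8 CPM in the libraries labelled female and 20.6 and 21.1 CPM in those labelled male. The sexes thus did not overlap in any of these strains, and the same was true of HSB, where females had 23.5 and 22.9 CPM and males 20.4 and 20.9 CPM. As labelled, both male pools were below both female pools in all 4 strains, a pattern that 58 of 15304 genes (0.379%) shared, while 49 genes (0.32%) had the reverse pattern. In LSB this separation rests on the labels of both libraries numbered 2, which went against them at dio2 and cyp19a1b. The sexes would overlap there if these labels were exchanged. In the other 3 strains, where it does not rest on them, the pattern was shared by 304 of 15304 genes (1.99%). Females averaged 22.6 ± 0.986 CPM and males 20.8 ± 0.573 CPM of her9 (SD over 8 libraries), and the log2 difference was -0.12 (standard error 0.029, 95% interval -0.18 to -0.057), or -7.92% in males. The gene ranked 79 of 15304 by its p and did not pass the threshold (adjusted p = 0.173), nor did it without both LSB libraries numbered 2, where the difference was again -0.12 (adjusted p = 0.137). Sex held 59.7% of the variance of its log2 values over the libraries and strain 30.7%, and only 5.24% lay between pools of the same group. Its 421 to 843 reads per library gave a counting error of up to 4.87% for a single library. In current RefSeq annotation (GRCz12tu) the span of a long noncoding RNA overlaps that of the gene. Reads from any shared exon could not be told apart in these unstranded libraries, but whether exons overlap was not examined. The same holds for s100b, sox2, her6 and notch3.

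**Figure D1:**
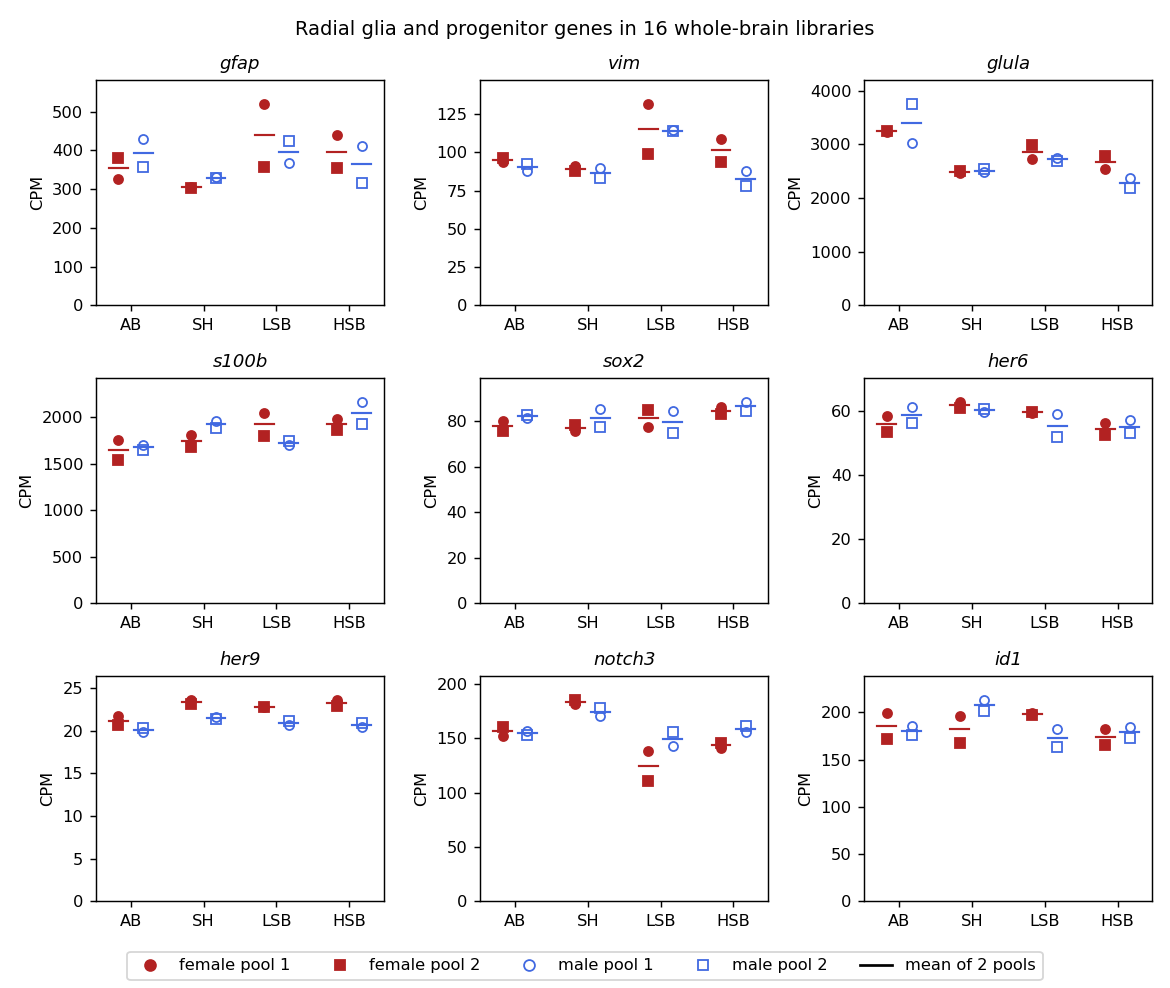
CPM (vertical axis, from 0) of the 9 measured genes in the 16 libraries by strain; filled red symbols are female pools, open blue symbols male pools, circles pool 1, squares pool 2, and bars the mean of 2 pools. For her9 both pools labelled male lie below both labelled female in every strain (in LSB this rests on the 2 libraries that went against their labels at dio2 and cyp19a1b), whereas for glula the 4 AB libraries (3031 to 3751 CPM) and for notch3 the 4 SH libraries (170.1 to 185 CPM) lie above all others.

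Vimentin (vim), an intermediate filament gene of radial glia, had estimates below 0 in every strain, but close to 0 in LSB. Females had 87.5 to 132 CPM (median 95.2) and males 78.0 to 115 CPM (median 88.9), so the sexes overlapped widely. The difference was -0.10 (standard error 0.057, adjusted p = 0.553). It became -0.15 (standard error 0.045, adjusted p = 0.207) without both LSB libraries numbered 2, which were at 99.1 CPM (labelled female) and 114 CPM (labelled male), while LSB female pool 1 had 132 CPM, the highest value of all. Only in HSB and AB were both male pools below both female pools, and the share of all genes with such a separation in a single strain was not computed. In HSB females had 109 and 93.8 CPM and males 87.7 and 78.0 CPM, a difference of -0.29 (standard error 0.11, adjusted p = 0.276 over all genes and the 4 strains).

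The other filament gene, gfap, the classical marker of radial glia and astrocytes, showed no common direction. The difference over all libraries was 0.0052 (standard error 0.083, 95% interval -0.17 to 0.18), with 303 to 519.6 CPM in females (median 356) and 317 to 430.1 CPM in males (median 363). By strain it was 0.15 in AB, 0.12 in SH, -0.12 in LSB and -0.12 in HSB, where 0 of 4 passed the threshold. The pools differed more than the sexes did, and 48.1% of its variance was found between pools of the same group.

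Glutamine synthetase (glula), the astroglial enzyme that joins glutamate and ammonia into glutamine, was at 2469 to 3239.6 CPM in females (median 2757) and 2195 to 3751 CPM in males (median 2619). Its difference was -0.056 (standard error 0.048, adjusted p = 0.690), and -0.042 (adjusted p = 0.809) without both LSB libraries numbered 2. In HSB, females had 2543 and 2785 CPM and males 2367 and 2195 CPM, with a difference of -0.22 (standard error 0.085, adjusted p = 0.284). The sexes did not overlap there, but how many of all genes did so in HSB was not computed. The calcium-binding protein gene s100b had 1538 to 2048 CPM in females and 1651 to 2167 CPM in males, with a difference of 0.025 (standard error 0.046, adjusted p = 0.866). It was 0.035 (adjusted p = 0.848) without both LSB libraries numbered 2 and 0.086 (adjusted p = 0.422) without any LSB library.

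The stem cell transcription factor gene sox2 was the steadiest of the 9, with a coefficient of variation of 5.24% over the 16 libraries. It was at 75.7 to 86.1 CPM in females (median 79.4) and 75.0 to 88.6 CPM in males (median 83.7). The difference was 0.039 (standard error 0.034, adjusted p = 0.696) and 0.071 (standard error 0.029, adjusted p = 0.377) without both LSB libraries numbered 2. For her6, a target of Notch and relative of mammalian Hes1, females had 52.3 to 62.7 CPM and males 51.9 to 61.0 CPM. Its difference was -0.0135 (standard error 0.037, adjusted p = 0.923) and turned to 0.012 without both LSB libraries numbered 2.

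The receptor gene notch3, which holds adult radial glia at rest in the zebrafish telencephalon, was at 111 to 185 CPM in females (median 149) and 143 to 178 CPM in males (median 156). The difference of 0.080 (standard error 0.050, adjusted p = 0.591) depended on the LSB libraries, as it was 0.022 (adjusted p = 0.854) without both numbered 2 and 0.018 (adjusted p = 0.890) without the strain. In LSB the libraries labelled female had 138 and 111 CPM and those labelled male 143 and 155 CPM. The BMP target id1 had a difference of -0.0001 (standard error 0.054, 95% interval -0.11 to 0.11), with 165 to 199.5 CPM in females and 163 to 213 CPM in males. Here the estimates of SH and LSB differed in sign, but neither passed the threshold. Males were above females in SH (213 and 202 against 197 and 168 CPM, a difference of 0.19, limma adjusted p = 0.424). In LSB the libraries labelled male were below those labelled female (183 and 163 against 199 and 197 CPM, a difference of -0.20, adjusted p = 0.397). The separation in LSB rests on the labels of both libraries numbered 2, which went against them at dio2 and cyp19a1b. The share of all genes separated in a single strain was not computed.

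**Figure D2:**
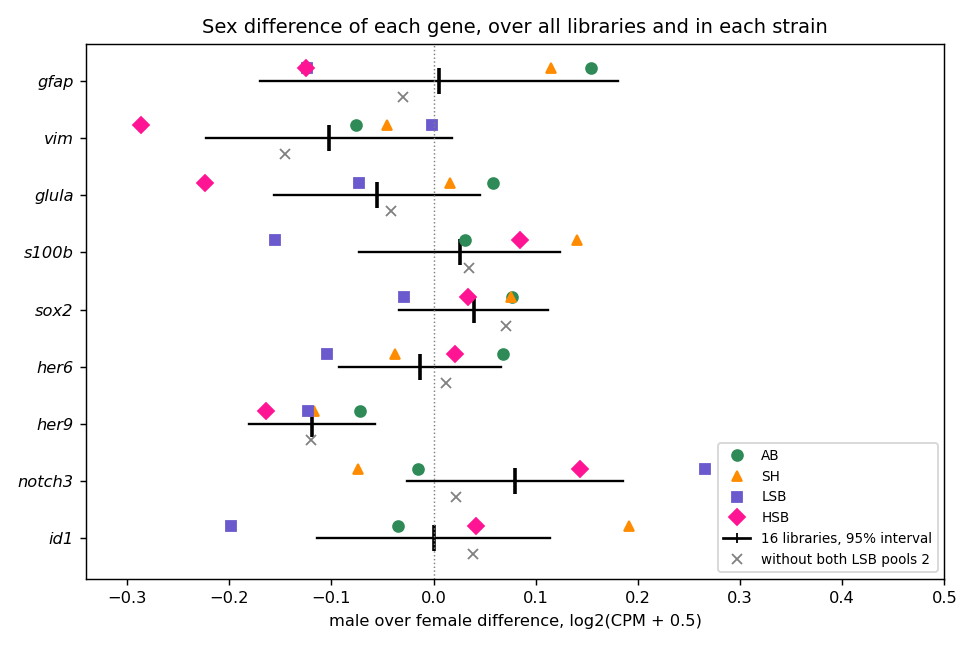
Male over female difference in log2(CPM + 0.5) (horizontal axis) of each gene; black bars are the estimate over 16 libraries with its 95% interval, grey crosses the estimate without both LSB libraries numbered 2, and coloured symbols the estimate in each strain. The interval excludes 0 for her9 only (-0.18 to -0.057, unadjusted), and the strain estimates of all genes but her9 and vim lie on both sides of 0.

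An interaction term asked if the strains differed in their sex differences. It passed the adjusted threshold in 0 of the 9 genes and in 5 of 15304 genes (0.0327%). At an unadjusted p under 0.05 it picked 2 of the 9, notch3 and id1, as against 16.6% of all genes, and their adjusted p in limma were 0.275 and 0.300. Without both LSB libraries numbered 2 these were 0.543 and 0.697, and again 0 of the 9 passed (0.0261% of all genes). Without LSB female pool 1, a fit in which the only LSB female library is the one that went against its label, the adjusted p of notch3 was 0.00492, and 1947 of all genes passed. Within single strains 0 of the 36 tests (9 genes in 4 strains) passed, and 6 had an unadjusted p under 0.05, those of id1 in SH and LSB, notch3 in LSB (0.27, adjusted p = 0.157), and her9, glula and vim in HSB. The share of all genes at this unadjusted level within strains was not computed, so the 6 have no background to be set against. At the adjusted threshold, the shares of all genes called within a strain were 0.0327% in AB, 0.131% in SH, 0.627% in LSB and 0.0653% in HSB. Without LSB female pool 1, notch3 in LSB (0.42, adjusted p = 0.00149) and vim in HSB (-0.29, adjusted p = 0.0436) passed, as did 2612 tests of single strains over all genes. The LSB female group is then 1 library, which is assumed to vary like the other groups. An estimate of the same sign in all 4 strains was found for 2 of the 9 genes, her9 and vim, and for 14.9% of all genes. Opposite directions with no overlap of the sexes in at least 1 strain each way were found for 3 of the 9 (s100b, notch3 and id1), against 30.8% of all genes.

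Strain held more of the variance than sex in 8 of the 9 genes, all but her9. Strain has more terms in the fit than sex, so it can hold more without any effect. The share of all genes with this order was not computed. In the test over the 4 strains, 4 of the 9 genes passed the threshold, where 61.5% of all genes did, so the share of these genes was not above the background. They were glula (adjusted p = 0.000229), notch3 (0.00168), vim (0.00337) and s100b (0.0218). Strain held 77.9% of the variance of glula, 66.3% of that of notch3, 60.7% of that of vim and 53.5% of that of s100b. Without both LSB libraries numbered 2, 6 of 9 passed (62.3% of all genes), with gfap (adjusted p = 0.0379) and her6 (0.0376) joining. For s100b the call was lost without AB female pool 2 (adjusted p = 0.0709), AB male pool 2 (0.0539) or HSB male pool 1 (0.0609). In pairs of strains, 14 of 54 tests passed, in 7 of the 9 genes, and 69.8% of all genes passed in at least 1 pair. The share of all genes called was 35.3% between AB and SH, 27.2% between AB and LSB, 21.8% between AB and HSB, 44.9% between SH and LSB, 32.4% between SH and HSB and 24.5% between LSB and HSB. In this bulk tissue, fewer cells of a type and less RNA per cell cannot be told apart.

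AB stood out by glula. Its libraries held 3237 and 3239.6 CPM (females) and 3031 and 3751 CPM (males), all above the 2195 to 2992 CPM of the other 12 libraries. The share of all genes in which a strain lay wholly apart from another strain, or from all others, was not computed. Mean expression was 3314 ± 307 CPM in AB, 2789 ± 137 in LSB, 2498 ± 32.5 in SH and 2473 ± 252 in HSB (SD, n = 4 libraries each). AB was thus 1.32-fold above SH (log2 difference 0.40, standard error 0.067, adjusted p = 0.000338), 1.34-fold above HSB (0.42, adjusted p = 0.000224) and 1.19-fold above LSB (0.25, adjusted p = 0.0113), and each of these calls held under all 27 alternatives in which the pair could be fitted. No pair among LSB, SH and HSB passed with all libraries, but the test over these 3 strains in a fit without AB did (adjusted p = 0.0327). AB was in turn lowest for s100b, with 1755, 1538, 1706 and 1651 CPM against 1986, 1867, 2167 and 1925 CPM in HSB. This difference between AB and HSB was -0.26 (standard error 0.065, adjusted p = 0.00750), and no other pair passed for s100b.

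SH stood out by notch3, whose libraries held 181 and 185 CPM in females and 170.1 and 178 CPM in males. All 4 lay above the 111 to 162 CPM of the other strains, again without a share of all genes to set this against. SH was 1.31-fold above LSB (0.39, standard error 0.071, adjusted p = 0.000601) and 1.18-fold above HSB (0.24, adjusted p = 0.0159), though the latter was just lost without SH female pool 2 (adjusted p = 0.0552). The calls of notch3 in AB below SH (-0.20, adjusted p = 0.0406) and AB above LSB (0.19, adjusted p = 0.0476) were near the threshold, and they held under 14 and 8 of the 27 alternatives. Both were lost when the libraries were rescaled by their median ratio (adjusted p = 0.0756 and 0.0541). The first reached 0.119 without SH female pool 2 and the second 0.130 without AB female pool 2.

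LSB stood out by vim, with 132 and 99.1 CPM in the libraries labelled female and 115 and 114 CPM in those labelled male. Other strains had 78.0 to 109 CPM. LSB was above SH by 0.38 on the log2 scale (standard error 0.080, adjusted p = 0.00222), above HSB by 0.32 (adjusted p = 0.00688) and above AB by 0.30 (adjusted p = 0.0100), and these calls held under all 27 alternatives. Expression of gfap was likewise higher in LSB (519.6, 358, 368 and 425 CPM) than in SH (305, 303, 331 and 328 CPM). All SH values were below all LSB values, a difference of 0.38 (standard error 0.12, adjusted p = 0.0207), which missed the threshold without LSB female pool 1 (0.26, adjusted p = 0.0745), SH female pool 1 (adjusted p = 0.0515) or SH female pool 2 (0.0538).

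For the progenitor regulators sox2 and id1 no pair of strains passed with all libraries. However, sox2 was lower in SH than in HSB without both LSB libraries numbered 2 (-0.11, adjusted p = 0.0379), and its test over strains passed in a fit without LSB (adjusted p = 0.0371). A single pair was called for her6, higher in SH than in HSB (60.9 ± 1.29 against 54.6 ± 2.31 CPM, log2 difference 0.16, adjusted p = 0.0353), and for her9, lower in AB than in SH (20.6 ± 0.759 against 22.4 ± 1.09 CPM, -0.12, adjusted p = 0.0433). Both calls were lost when the libraries were rescaled by their median ratio (adjusted p = 0.190 and 0.242) or when any of several single libraries was left out, among them SH female pool 1 (0.0894 and 0.0954).

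**Figure D3:**
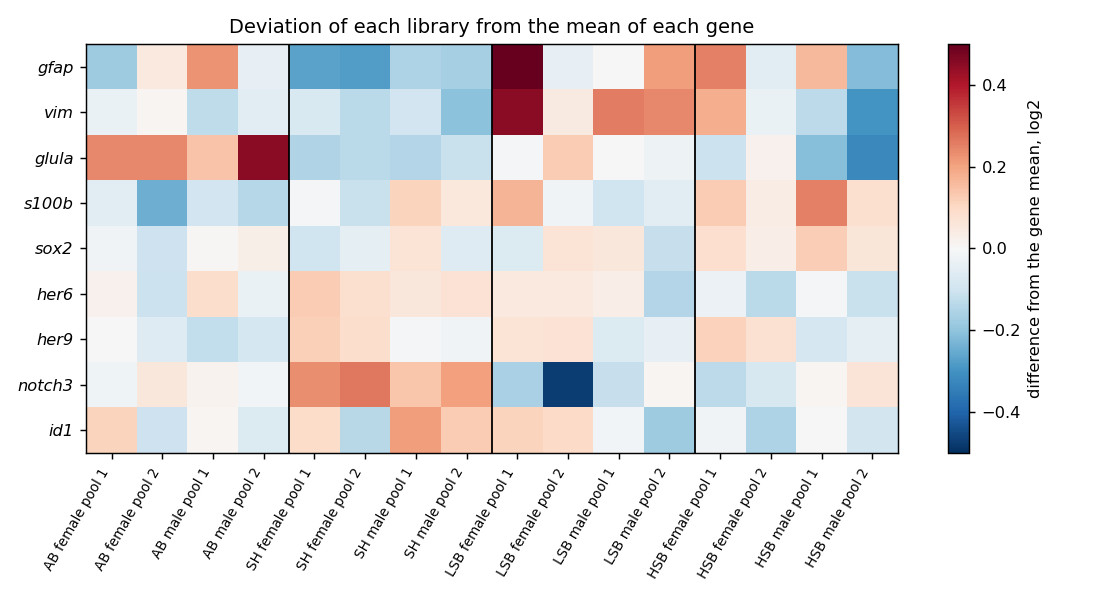
Difference of each library from the mean of the gene over the 16 libraries, in log2(CPM + 0.5), for the 9 genes (rows) in the libraries ordered by strain (columns); red is above and blue below the mean. The AB block is red for glula, the SH block red for notch3 and blue for gfap and glula, and the LSB block red for vim, while her9 is higher in the columns labelled female than in those labelled male of the same strain.

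Within strains the 9 genes did not move as a block. Over the 36 pairs of genes, the median Pearson correlation of log2 values after subtracting strain means was 0.066 (16 libraries, where both genes of a pair are read from the same library and share its depth), with 5 pairs over 0.5 and 3 under -0.5. The same values for pairs of other genes were not computed, so these have no background to be set against. The highest values were those of s100b with id1 (0.80), her6 with id1 (0.62) and gfap with vim (0.62), the last being the 2 filament genes. The lowest were those of notch3 with sox2 (-0.55), glula (-0.54) and id1 (-0.54). The order changed without both LSB libraries numbered 2, as notch3 with vim went from 0.064 to -0.73, notch3 with sox2 to -0.26 and her6 with id1 to 0.43, while s100b with id1 stayed at 0.86. The genes whose patterns were most like each of the 9 were then sought in the whole table by the same measure. As the 2 highest of all genes were taken over only 16 libraries, high values can arise among unrelated genes. No background was computed, and the values are a description only. For gfap they were cdc42l (r = 0.90) and capg (0.88), for vim pigm (0.86) and azin1b (0.85), for glula paip1 (0.89) and pyroxd2 (0.86), and for s100b FBXO2 and C12H10orf88 (0.85 and 0.84). For sox2 they were sdhb (0.90) and IDH2 (0.87), for her6 hint2 (0.90) and gstp1 (0.89), for her9 FAM35A (0.88) and flad1 (0.88), and for id1 PQLC2 and smim8 (0.89 each). The closest likeness was that of notch3 with fryb (0.96) and nos1 (0.96), which fell to 0.88 and 0.80 without both LSB libraries numbered 2.

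The same comparisons were made for the genes around them, in lists of which some also hold notch3, her6, her9 or id1. Of 26 other radial glia and astroglia genes, 0 passed the threshold for sex (15 higher and 11 lower in males, median log2 difference 0.012), and 2 passed without both LSB libraries numbered 2 (0.523% of all genes did). These were cyp19a1b, lower in males (-0.66, adjusted p = 2.92e-05), and atp1a1b, the glial sodium pump subunit, higher in males (0.19, adjusted p = 0.00642), the latter named after its values had been seen. With all libraries the values were -0.52 (standard error 0.11, adjusted p = 0.116) and 0.15 (adjusted p = 0.170). The paper, by edgeR with strain as cofactor, called more genes for sex than the fit here, among them cyp19a1b as female-biased. In other HSB and LSB fish it found no sex bias of cyp19a1b by quantitative PCR. Since cyp19a1b served to examine the labels of the left-out libraries, its value without them is not independent of that choice. In SH cyp19a1b was at 5757 and 5373 CPM in females and 2944 and 3118 CPM in males, against 2820.3 to 3168 CPM in AB and HSB females and 1750.2 to 2234 CPM in their males. By strain, 11 of the 26 genes passed (42.3%), a smaller share than the 61.5% of all genes. They were led by nes, the intermediate filament of progenitors, which was at 32.0 ± 1.49 CPM in SH and 19.7 ± 2.35 in LSB (0.69, adjusted p = 3.36e-06). The glutamate transporter gene slc1a3b was highest in HSB (249 CPM) and lowest in LSB (191 CPM), and the growth factor gene ptn was highest in HSB (502 CPM against 417 to 428 CPM in the other strains).

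Genes of the Notch pathway were measured for 14 ligand and receptor loci. For sex 0 passed, with 7 higher and 7 lower in males. SH and LSB, the pair that differed most for notch3, were also the pair with the most calls over all genes, as 29.8% of genes were higher and 15% lower in SH. When the libraries were rescaled by their median ratio the shares were 21.9% and 21.6%. Of the 14 loci, 8 were higher and 2 lower in SH, or 6 and 2 after rescaling, and the median difference was 0.24 against 0.072 over all genes. Without both LSB libraries numbered 2 the counts were 6 and 2 (25.8% and 13.3% of all genes). The counts include notch3 itself, whose difference was largest in this pair and so adds no support here. Besides notch3, the loci higher in SH included the receptor gene notch2 (35.9 against 27.9 CPM, 0.36, adjusted p = 0.00226), the ligand gene jag1a (26.9 against 21.2 CPM, 0.34, adjusted p = 0.000378) and DNER, a ligand found on neurons (211 against 178 CPM, 0.26, adjusted p = 0.00859). Among 23 loci that process the Notch signal, 8 were higher and 3 lower in SH (6 and 6 after rescaling, 8 and 3 without both LSB libraries numbered 2), among them the Notch inhibitor gene numb (0.63, adjusted p = 4.70e-05) and the coactivator gene maml3 (0.30, adjusted p = 0.000112), both higher.

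The hes, her and hey genes include the direct targets of Notch. Of 15 loci, 2 were higher and 4 lower in SH than in LSB (1 and 5 after rescaling, 2 and 3 without both LSB libraries numbered 2), with a median difference of -0.12. Of all genes, 29.8% were higher and 15% lower, or 21.9% and 21.6% after rescaling. The largest change was that of her4.3, at 4.52 CPM in SH and 8.50 CPM in LSB (-0.83, adjusted p = 0.000115), although the her4 genes are near-identical tandem copies among which reads may have been divided. Of the other copies, named after their values had been seen, her4.1 was higher in SH (0.30, adjusted p = 0.00263). A locus with the symbol HER4.2 was lower in SH (-0.33, adjusted p = 0.00635), and her4.2 and her4.4 did not pass. For sex 11 of the 15 were lower in males and 0 passed (51.0% of all genes had an estimate below 0). Of 19 id and BMP genes, 3 were higher and 1 lower in SH (2 and 1 after rescaling, 1 and 1 without both LSB libraries numbered 2). These were smaller shares than those of all genes. The receptor gene bmpr2b was at 62.8 against 42.0 CPM (0.61, adjusted p = 0.00103) and the ligand gene bmp4 at 4.80 against 7.01 CPM (-0.50, adjusted p = 0.000130). The bmpr2b value of LSB was lowest in the library labelled LSB female pool 2 (28.6 CPM), as was that of notch3.

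Genes of cell division were mostly lower in SH. Of 23 loci, 0 were higher and 16 lower in SH than in LSB (0 and 18 after rescaling, and again 16 without both LSB libraries numbered 2), with a median difference of -0.36. Of all genes, 15% were lower in SH, or 21.6% after rescaling. By strain 20 of the 23 passed (87%, against 61.5% of all genes). The replication clamp gene pcna was at 89.8 CPM in SH and 111 CPM in LSB (-0.31, adjusted p = 0.000478), the mitotic cyclin gene ccnb1 at 4.13 and 7.58 CPM (-0.80, adjusted p = 2.12e-05) and the chromatin gene hmgb2b at 103 and 133 CPM (-0.36, adjusted p = 0.000419). A pair of loci bear the symbol rrm2, and they differed in opposite ways between AB and LSB (0.581 and 8.94 CPM at the first, 11.01 and 3.42 CPM at the second), so reads may have been divided between them. For sex 0 of the 23 passed, with 11 higher and 12 lower in males.

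Markers of other cell types differed between these strains as well. In SH against LSB, 4 of 6 microglia markers, 6 of 10 oligodendrocyte markers, 3 of 4 blood markers and 5 of 6 skeletal muscle markers were lower in SH, and 0 of each were higher. Of all genes, 15% were lower and 29.8% higher in SH. The count for skeletal muscle was 1 of 6 without both LSB libraries numbered 2, and the other counts were again 4, 6 and 3. Of 8 markers of meninges and vessels, 1 was higher and 2 lower in SH (1 and 3 without both libraries). Of 6 retina markers 0 were called either way. Microglia markers summed to 97.4 to 123 CPM in SH and 144 to 162 CPM in LSB, and oligodendrocyte markers to 26663 to 32051 CPM in SH and 41674 to 52163 CPM in LSB, without overlap. Of the neuron markers, 5 of 10 were higher and 1 lower in SH, but 2 and 1 after rescaling. The part of these cells in the strain differences of the glial and cell division genes was not tested.

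The list of neuronal precursor genes leaned one way between the sexes without a call. Of its 22 genes, 18 were lower in males (18 also after rescaling), where 51.0% of all genes had an estimate below 0. The list median was -0.053. In the list, 7 genes had an unadjusted p under 0.05 with lower values in males, where 5.66% of all genes did. Of the 22, 0 passed the adjusted threshold. The genes with the lowest strain p were sox4a, an early neuronal transcription factor gene (sex difference -0.093, standard error 0.029, adjusted p = 0.284), and the tubulin genes tubb5 (-0.065, adjusted p = 0.612) and tuba1a (-0.037, adjusted p = 0.773). Without both LSB libraries numbered 2 the list median was -0.055 and neurod6a, named after its values had been seen, passed (-0.19, adjusted p = 0.0218). Of 10 neuron markers, 7 were lower in males (median -0.0059), and 0 passed, or 1 without both libraries. An unadjusted p under 0.05 was found for 3 of the 10, of which 2 were lower in males. In the same comparison, 9 of 10 oligodendrocyte markers had estimates above 0 in males (median 0.14), of which the myelin regulator gene myrf passed (0.19, standard error 0.026, adjusted p = 0.00688). When both LSB libraries numbered 2 were left out, 6 of the 10 passed (0.523% of all genes did) and the median was 0.16. These libraries were left out for their values of dio2, cyp19a1b and igf1. The paper places dio2 and igf1 in the same coexpression module as olig2, a gene of this list, so the added calls may not be independent of that choice. Of 8 markers of meninges and vessels, 6 were higher in males (median 0.068), and 0 passed, or 1 without both libraries. For skeletal muscle and retina markers 0 of 6 each passed, with or without both libraries. The muscle estimates were all above 0 (median 1.19), and the summed levels were 25.1 to 492 CPM in females and 27.8 to 248 CPM in males but for AB male pool 2, which had 2182 CPM. The retina estimates were all below 0 (median -0.11, but 0.10 without both LSB libraries numbered 2). The part of any of these in the difference of the precursor genes was not tested.

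**Figure D4:**
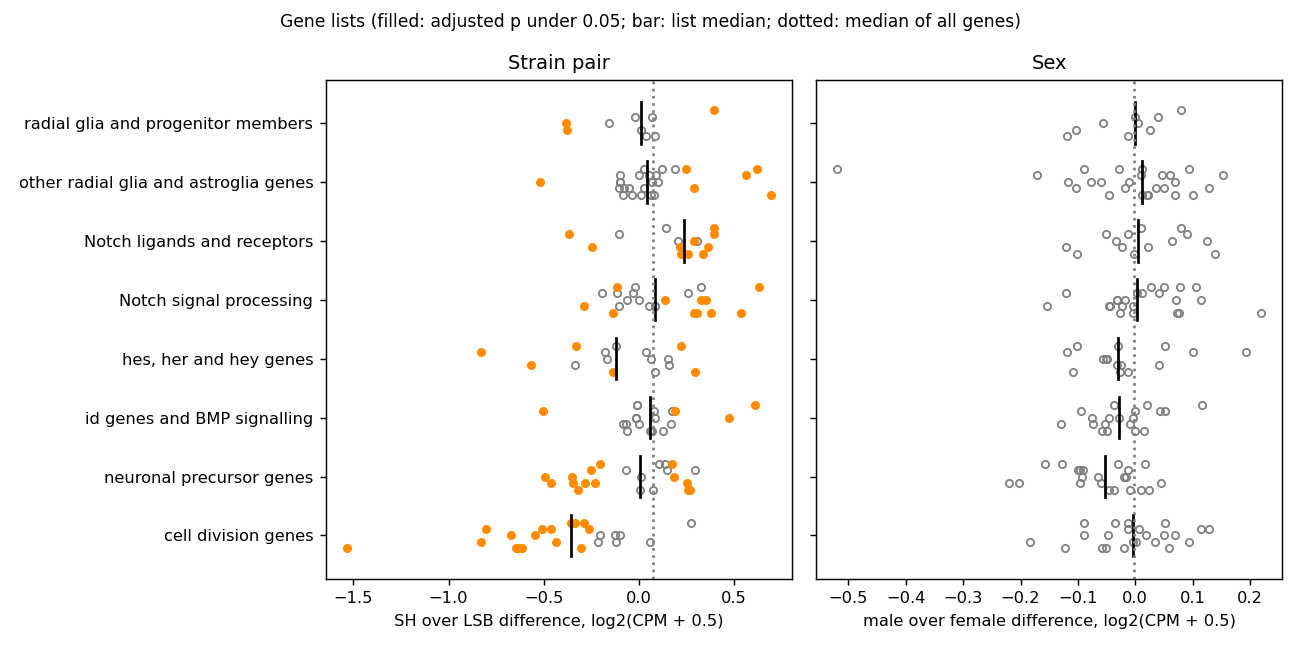
Differences in log2(CPM + 0.5) of the genes of 8 lists (rows), SH over LSB on the left and male over female on the right; each circle is a locus, filled orange where the adjusted p was under 0.05, bars are list medians and dotted lines the median of all genes. On the left the Notch ligands and receptors lie mostly to the right (8 of 14 called higher in SH) and the cell division genes to the left (16 of 23 called lower), and on the right no circle is filled.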

How the data were processed

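Whole-brain RNA (TruSeq V2, which does not mark strand) was sequenced from 16 pools. Per the labels and the study's methods, the authors used CASAVA 1.7, aligned reads to Zv9 with GSNAP, counted them per gene with HTSeq, restricted the table to protein coding genes and deposited CPM, which sum to 1000000 in each library. All values were whole multiples of a single read (tolerance 0.02), from which depth was read. No count test was run. The authors' columns of test results were not used, and 0 columns of other samples were present.

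Here limma 3.58.1 (R 4.3.3, eBayes with trend) was fitted to log2(CPM + 0.5) of all genes, with Benjamini-Hochberg adjustment over all genes and, for pairs of strains or single strains, over these together (threshold 0.05). This scale understates changes of low genes. Levels of different genes were not compared, as no transcript lengths were used. Pools were named replicates by the labels and hold different fish. Members and lists were chosen with earlier results of these data known. Named genes are all members, list genes past the threshold for sex, the 3 with the lowest strain p and the 2 with the highest mean CPM of each list, and the 2 genes most like each member. A list gene that this rule selects is not reported here. Alternatives were 2 rescalings (median ratio, TMM), filters on mean CPM of 1 and 10, pseudocounts 0.1 and 1, no trend, a replicate block, and leaving out libraries or strains. Figures used matplotlib 3.10.9 (Python 3.11.15).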

Additional observations from a re-analysis of the deposited data

Results flagged for a closer look

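Among 54 groups of 4 or 8 libraries examined for a library far from the rest, 2 held one, and chance gives about 1 in 20. Expression of glula was 2992 CPM in the library labelled LSB female pool 2, whereas the nearest LSB library had 2738 CPM. Expression of her6 was 51.9 CPM in the library labelled LSB male pool 2, against 58.8 CPM in the nearest.

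Opposite sex differences between strains, with no overlap of the sexes in either, were found for 3 genes, and 30.8% of all genes had such a pair of strains. For s100b the difference was 0.14 in SH and -0.16 in LSB (interaction adjusted p = 0.382). For notch3 it was -0.074 in SH, 0.27 in LSB and 0.14 in HSB (adjusted p = 0.275). For id1 it was 0.19 in SH and -0.20 in LSB (adjusted p = 0.300, all from limma). None of these interactions passed the threshold. For s100b and id1 the opposite directions involved the LSB libraries that went against their labels at dio2 and cyp19a1b. For notch3 they were also found between SH and HSB, without LSB. In a fit without LSB its interaction did not pass either (limma, adjusted p = 0.86).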

How the results depend on the processing

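The 9 members gave 0 calls for sex under all 29 alternatives, and 3 to 6 for strain. The sex difference of her9 stayed negative in all 29 alternatives (-0.13 to -0.10, adjusted p from 0.125 to 0.578). Over all genes, 6 were called for sex, but 10 with a mean CPM of at least 10, 80 without both LSB pools numbered 2, 109 without LSB, 1 without AB and 0 without SH or HSB (limma, adjusted), and 5 to 52 when a single library was left out. Strain calls fell to 4653 without SH. Interaction calls were 2 without trend, 3 without AB and 0 without SH or HSB, and from 0 to 1947 (members 0 to 1) when a library was left out. Calls within strains were 9 without trend and 85 without both LSB pools numbered 2, and 5 to 2612 (members 0 to 2) when a library was left out. Member calls in pairs of strains ranged from 9 to 15. The member counts for strain and for pairs are given without the shares of all genes under each alternative. Sex differences near 0 changed sign. For gfap the value was -0.029 without both LSB pools numbered 2, -0.045 without AB and -0.032 without SH, and -0.033 to 0.066 with a library left out. For glula it was 0.0003 without HSB, and for s100b -0.013 without SH. For her6 it was 0.012 without both LSB pools numbered 2, 0.017 without LSB, and -0.033 to 0.011 with a library left out. For id1 it was 0.0012 with median ratio scaling, 0.038 without both LSB pools numbered 2, 0.011 without AB, 0.066 without LSB and -0.038 to 0.033 with a library left out. The cause was not tested. With the replicate block, 0 interaction and 7 within-strain calls were made. Deviations of same-numbered pools correlated at 0.071 in AB, -0.09 in SH, -0.211 in LSB and 0.311 in HSB, so the numbers were not taken to pair the pools. Depth limits her9 most, at 421 to 843 reads per library.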
